A study of Mus musculus with 6 samples.

Results

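The p53 pathway was examined in erythroblasts without the miR-144/451 locus, through p53 itself and 9 stress targets: Mdm2, Ccng1, Trp53inp1, Phlda3, Zmat3, Aen, Ei24, Rrm2b and Fas. Members were every probe set whose platform annotation named exactly 1 gene, equal to 1 of these 10 symbols. This gave 20 of the 45037 probe sets tested, covering 9 of the 10 genes. Trp53, the gene of p53, was not analysed here, so the account concerns its targets.

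The KO group was 3 mice with the miR-144/451 knockout, with the label numbers 493, 548 and 551, and the WT group 3 wild-type mice, with the numbers 497, 504 and 550. From each mouse, large bone marrow cells carrying Ter119, an erythroid surface marker, and CD71, the transferrin receptor, were sorted straight into RNA reagent, and their total RNA was hybridised to 1 Affymetrix Mouse Genome 430 2.0 array. All cells were primary and no treatment besides antibody staining and sorting was labelled. The allele's design and the background, age and litter of the mice were not analysed here. The comparison asks which transcripts differ in these cells when the microRNAs are missing.

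p53 is a transcription factor that most cells make and destroy continuously, the destruction being driven by the ubiquitin ligase Mdm2. DNA damage, oxidative stress or faulty ribosome assembly stabilises it, and it then activates genes that halt the cell cycle, repair DNA, adjust metabolism or kill the cell. Mdm2 is itself such a target, so the pathway carries its own brake, and in erythroid cells p53 activation is known from inherited anaemias of ribosomal proteins.

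The sequences missing from the KO cells are the mature microRNAs of the deleted locus, shown because their loss defines the comparison, with the seed, bases 2 to 8, in capitals. They are RefSeq sequences on the plus strand of mouse assembly GRCm38.p6, at chr11:78073047-78073066 for miR-144-3p, chr11:78073010-78073032 for miR-144-5p and chr11:78073186-78073207 for miR-451a.
mmu-miR-144-3p: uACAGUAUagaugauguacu
mmu-miR-144-5p: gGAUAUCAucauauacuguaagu
mmu-miR-451a: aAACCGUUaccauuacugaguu
The 3 seeds differ from one another.

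Before the members, the arrays as a whole: the deposited intensities were returned to the log2 scale, on which array medians were 5.62 to 5.68 in KO mice and 5.73 to 5.78 in WT mice. All 9 measured erythroid markers were above the upper quartile of every array, with mean levels of 12.32 to 12.36 in KO mice and 12.40 to 12.46 in WT mice. All 8 neutrophil, all 5 B lineage and all 5 megakaryocyte markers also lay above that quartile on every array. So did 4 of 6 macrophage markers, 2 of 5 eosinophil, basophil and mast cell markers and 1 of 5 T and NK markers. Of 34 measured markers of other blood cells, 31 were lower in KO mice, against 55.7% of all genes. Their mean levels were 9.47 to 9.49 in KO mice and 9.79 to 10.15 in WT mice. Limma called 0 of the 34, while 15 had an unadjusted p under 0.05, against 21.0% of all genes. The 3 higher ones were all megakaryocyte markers, of which 5 were measured. Of the 9 erythroid markers 8 were lower too, 5 of them with every KO mouse below every WT mouse, as for 16.2% of all genes. The 3' minus 5' signal of the actin control, a sign of RNA integrity, was 1.82 to 1.86 in KO mice and 1.65 to 1.67 in WT mice, and that of the Gapdh control, whose groups overlapped, 1.0 to 1.05 in KO mice and 1.03 to 1.09 in WT mice. In sorted bulk RNA, fewer cells of a type and less RNA per cell cannot be told apart.

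None of the 20 probe sets of p53 targets passed the test between genotypes, in which a call is an adjusted p under 0.05 by limma, with Benjamini-Hochberg adjustment over all 45037 probe sets. Of the whole array 0.355% was called, with 0.184% higher and 0.171% lower in KO mice. Ccng1 and Aen lay higher in KO mice by up to 1.64-fold and 1.63-fold. At their brightest probe sets the differences were 1.34-fold and 1.06-fold, with overlapping groups for Aen. On the lower side stood 1 dim probe set of Mdm2, by 1.49-fold, and Fas, by 1.41-fold with overlapping groups. An unadjusted p under 0.05 was found for 6 of the 20, 5 of them higher and 1 lower in KO mice, that is 3 probe sets of Ccng1, 2 of Aen and 1 of Mdm2; over all probe sets 19.8% had such a p, 7.61% higher and 12.2% lower. KO and WT mice did not overlap at 6 probe sets, 5 higher and 1 lower, against 26.0% of all probe sets, 10.7% higher and 15.3% lower. The median log2 difference, KO minus WT, was 0.06 over the 20 probe sets and -0.04 over all probe sets. With 3 mice against 3, the exact two-sided permutation test of a single value cannot give a p below 0.1, and it gave that smallest value at those 6 probe sets only. Counted by gene, each of the 9 by its brightest probe set, 5 lay higher and 4 lower in KO mice. Of these 9 genes, 1 had an unadjusted limma p under 0.05, against 21.0% of all genes. The groups did not overlap for 1 of the 9, against 28.8% of all genes.

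**Figure D1:**
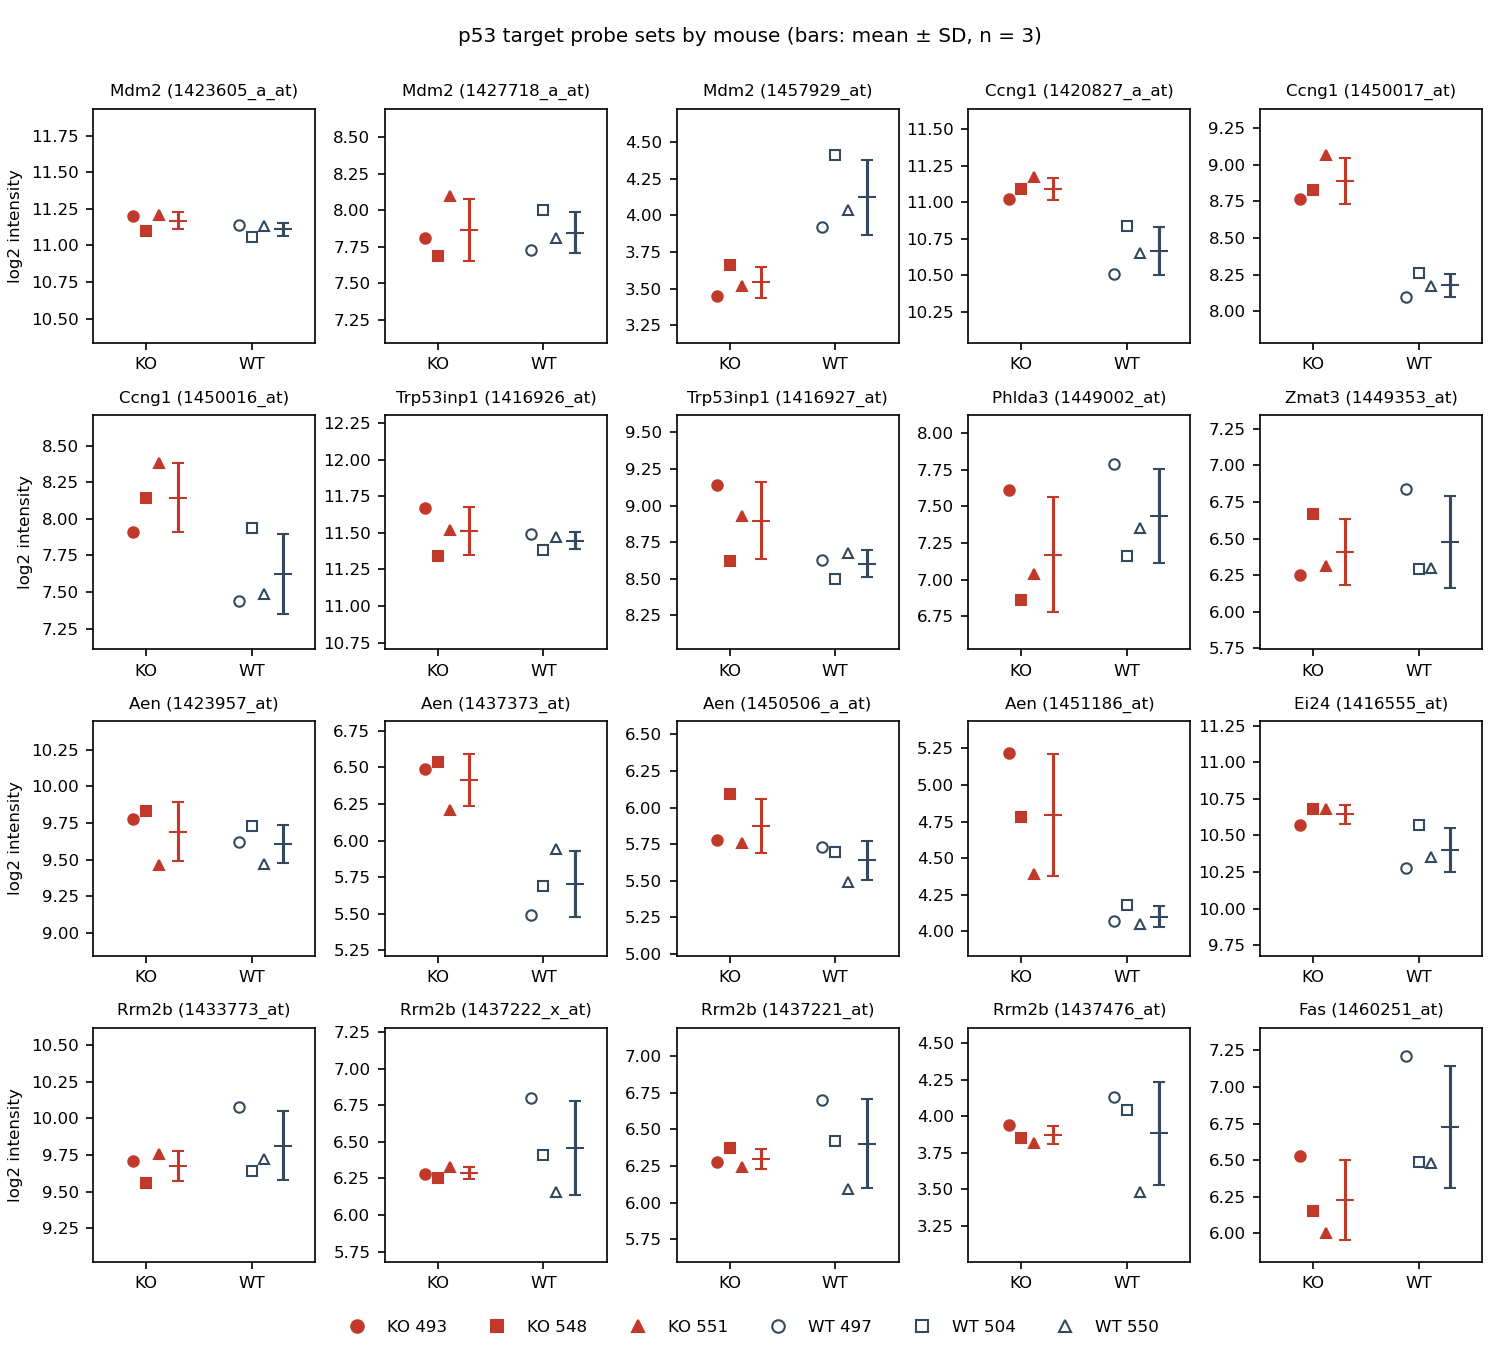
Log2 intensity (vertical axis, every panel spanning the same number of log2 units) of the 20 probe sets by mouse, KO at left and WT at right, with bars for mean ± SD of 3 mice. The KO mice lie above all WT mice at 2 probe sets of Ccng1 and 3 of Aen, and below them at 1 of Mdm2; at the other 14 probe sets the groups overlap.

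Among the members, Mdm2, the ligase that marks p53 for destruction, was read by 3 probe sets. At the brightest, levels were 11.20, 11.10 and 11.21 in KO mice 493, 548 and 551, against 11.14, 11.06 and 11.13 in WT mice 497, 504 and 550. The groups overlapped, and the difference was 0.06 ± 0.10 (log2, SE, n = 3 per group; limma adjusted p = 0.775), with a 95% interval of -0.17 to 0.29. The next probe set was at 7.87 ± 0.21 in KO mice and 7.85 ± 0.14 in WT mice (SD, n = 3). The remaining one read 3.45, 3.66 and 3.52 in KO mice, against 3.92, 4.41 and 4.04 in WT mice. All 3 KO mice were below all WT mice there, by -0.58 ± 0.15 (limma adjusted p = 0.133), but 5 of its 6 values lay under the lower quartile of their array, where the size of a difference is poorly measured. The 2 brighter probe sets thus gave Mdm2 intervals that include 0, and the dim one a value of another sign.

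Ccng1 encodes cyclin G1, a target that brings protein phosphatase 2A to Mdm2 and so tunes the feedback on p53. Its brightest probe set read 11.02, 11.09 and 11.17 in KO mice, against 10.51, 10.84 and 10.65 in WT mice. All KO mice lay above all WT mice, with a difference of 0.43 ± 0.12 (SE; limma adjusted p = 0.147), that is 1.34-fold. A second probe set, 1450017_at, read 8.77, 8.83 and 9.07 in KO mice, against 8.10, 8.26 and 8.17 in WT mice. The groups were again apart, and the difference of 0.71 ± 0.12, with a 95% interval of 0.43 to 1.0, had the smallest p of the 20 probe sets (unadjusted p = 0.000635, adjusted p = 0.0691). The third read 7.91, 8.14 and 8.38 in KO mice, against 7.44, 7.94 and 7.49 in WT mice. Here KO 493 lay below WT 504, and the difference was 0.52 ± 0.18 (adjusted p = 0.199). The 3 probe sets share 1 source sequence in the annotation and are not independent readings of the gene. Their mean differed by 0.55 (adjusted p = 0.0988).

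Ccng1 passed in 3 of the alternative settings. With an intensity trend and a robust prior, limma called the brightest probe set (adjusted p = 0.0381) and 1450017_at (adjusted p = 0.0219), where that fit called 3.53% of all probe sets. The probe set 1450017_at was also called with a filter on dim probe sets (adjusted p = 0.0300, 4.51% of probe sets called) and after adding 16 to each intensity (adjusted p = 0.0260, 2.26% called), and not in the other 10 alternatives run for it. No mouse carried the direction of this probe set: with each left out in turn, the difference was 0.62 to 0.77.

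Ccng1 lies on chromosome 11, which also carries the deleted locus. In gene order, 487 measured genes stood between them, 13 of them called, and 2 called genes lay beyond Ccng1 on that side. On the whole chromosome 23 of 1443 measured genes were called, against 0.385% of all genes. The nearest called gene was 80 measured genes from Ccng1. The part of the genes around the locus in the values of Ccng1 was not tested.

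**Figure D2:**
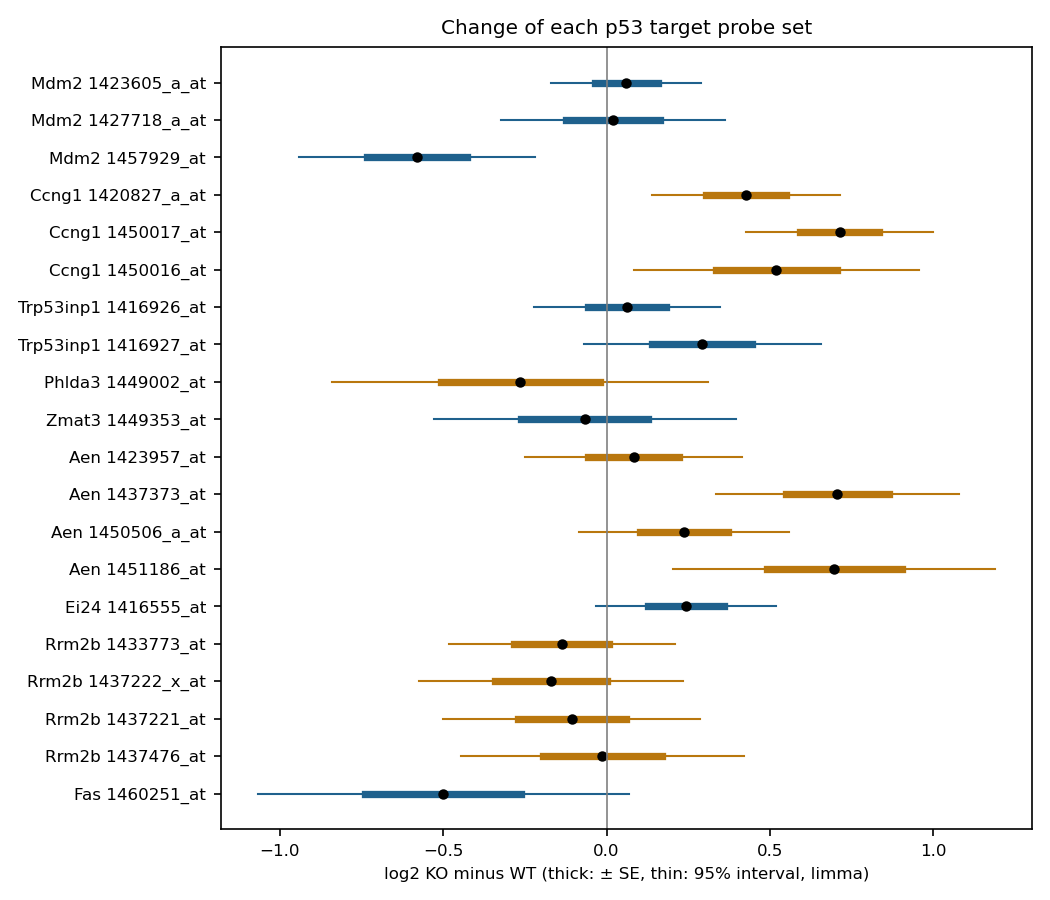
Log2 difference, KO minus WT, for each of the 20 probe sets (points), with limma's standard error (thick lines) and 95% interval (thin lines). Intervals exclude 0 for 3 probe sets of Ccng1 and 2 of Aen, on the higher side, and for the dim probe set of Mdm2, on the lower side; they are not adjusted for the number of probe sets.

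Aen encodes an apoptosis-enhancing nuclease induced by p53, and its 4 probe sets differed among themselves. The brightest read 9.78, 9.83 and 9.46 in KO mice, against 9.62, 9.73 and 9.47 in WT mice. These overlapped, with a difference of 0.08 ± 0.14 (adjusted p = 0.784) and a 95% interval of -0.25 to 0.41, or 0.01 to 0.20 with 1 mouse left out. The probe set 1437373_at read 6.49, 6.54 and 6.21 in KO mice, against 5.49, 5.69 and 5.94 in WT mice. All KO mice were above all WT mice there, by 0.71 ± 0.16 (adjusted p = 0.103). The other two were at 5.88 ± 0.19 in KO mice and 5.64 ± 0.13 in WT mice (SD, n = 3), a difference of 0.24 that was 0.13 without KO 548, and at 4.80 ± 0.42 in KO mice and 4.10 ± 0.07 in WT mice. The last of these had 3 of its 6 values under the lower quartile of the array, and it shares its source sequence with the brightest probe set, whose difference was 0.08. All 4 differences were positive, and the array gives no single size for Aen.

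Ei24, an endoplasmic reticulum protein with roles in apoptosis and autophagy, read 10.57, 10.68 and 10.68 in KO mice, against 10.28, 10.57 and 10.35 in WT mice. The lowest KO mouse equalled the highest WT mouse, and the difference was 0.24 ± 0.12 (adjusted p = 0.301). Trp53inp1, a nuclear cofactor that aids p53's apoptotic function and also autophagy, read 11.67, 11.34 and 11.52 in KO mice, against 11.49, 11.38 and 11.47 in WT mice. KO 548 was below every WT mouse, and the difference was 0.06 ± 0.12 (adjusted p = 0.809), or -0.02 without KO 493. Its other probe set, from the same source sequence, was at 8.90 ± 0.26 in KO mice and 8.60 ± 0.09 in WT mice (SD), a difference of 0.29 ± 0.15 (SE, adjusted p = 0.337), or 0.17 without KO 493.

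Rrm2b, the ribonucleotide reductase subunit that supplies nucleotides for DNA repair in resting cells, had 4 probe sets, with differences of -0.17 to -0.01 and adjusted p of 0.620 to 0.977. Its brightest read 9.71, 9.56 and 9.76 in KO mice, against 10.08, 9.64 and 9.72 in WT mice. WT 497 stood highest and the other WT mice lay within the KO range; without WT 497 the difference was -0.003. Zmat3, an RNA-binding zinc finger protein that acts in p53-dependent growth control, read 6.25, 6.67 and 6.31 in KO mice, against 6.84, 6.29 and 6.30 in WT mice. Its groups overlapped, at -0.07 ± 0.19 (adjusted p = 0.881), and the sign turned with WT 497 or KO 493 left out (0.11 and 0.01) and under another quantile or cyclic loess normalization (0.04 and 0.01).

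Phlda3, a membrane-binding protein that restrains the kinase AKT, read 7.61, 6.86 and 7.04 in KO mice, against 7.79, 7.16 and 7.35 in WT mice. The groups overlapped, at -0.26 ± 0.24 (adjusted p = 0.586), or -0.08 without WT 497, -0.11 without KO 548 and -0.48 without KO 493. Fas, the death receptor, read 6.53, 6.15 and 6.0 in KO mice, against 7.21, 6.49 and 6.48 in WT mice. WT 497 stood far above the other mice and KO 493 lay above both remaining WT mice; the difference was -0.50 ± 0.24 (adjusted p = 0.301), or -0.26 without WT 497.

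The mean levels of both lymphoid marker lists, like Fas, were highest in WT 497, although single markers were not always so: Nkg7, a granule protein of killer cells, was at 9.95 in WT 497 and 10.18 in WT 504. The mean of 5 B lineage markers was 9.41, 8.95 and 8.97 in KO mice 493, 548 and 551, against 10.28, 9.54 and 9.61 in WT mice 497, 504 and 550. The mean of 5 T and NK markers was 6.67, 6.27 and 6.82 in KO mice, against 7.76, 7.10 and 6.98 in WT mice. In both lists every KO mouse lay below every WT mouse. All 10 markers were lower in KO mice, 5 of them with an unadjusted p under 0.05, against 21.0% of all genes, and 0 called by limma. The pattern was not particular to lymphoid markers. The eosinophil, basophil and mast cell list (9.74) and the neutrophil list (12.39) were also highest in WT 497, with every KO mouse below every WT mouse. The macrophage list was highest in WT 504 (9.75), and there too every KO mouse lay below every WT mouse. The megakaryocyte list was highest in KO 548 (9.94), with overlapping groups. Fas is made by many lymphocytes as well as by erythroblasts, and the part of any of these markers in the values of Fas was not tested.

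**Figure D3:**
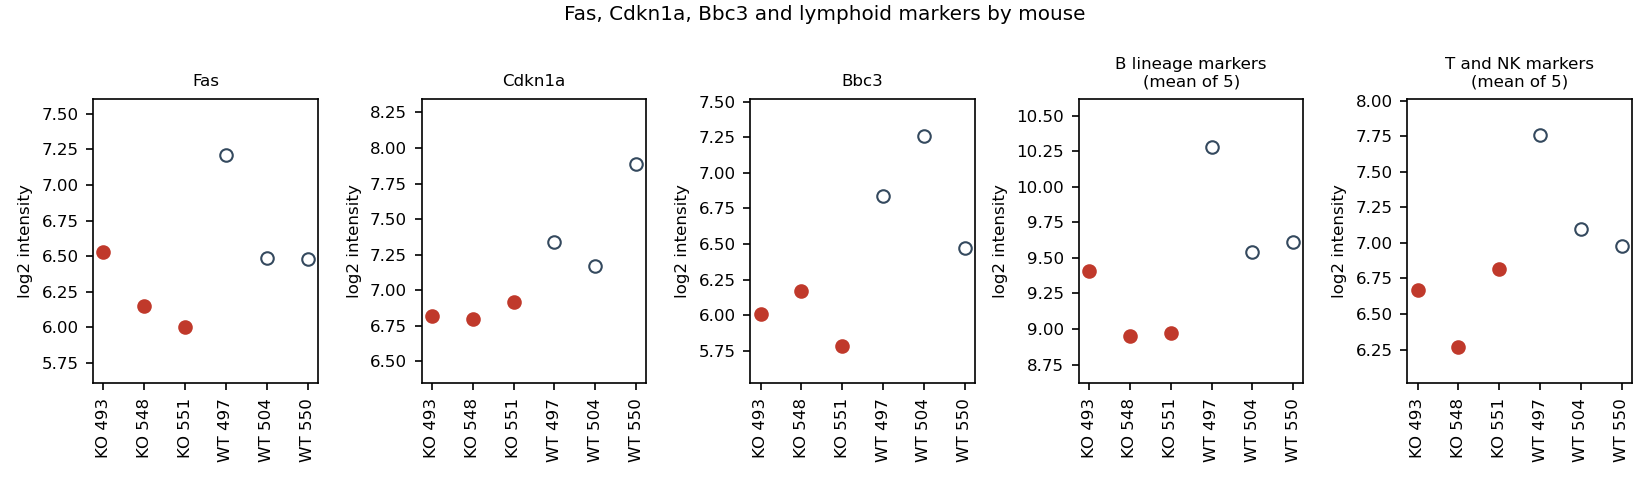
Log2 intensity by mouse (KO at left, filled; WT at right, open) of Fas, of Cdkn1a and Bbc3, and of the mean of 5 B lineage and 5 T and NK markers, with every panel spanning the same number of log2 units. WT 497 is highest for Fas and both marker lists, WT 550 for Cdkn1a and WT 504 for Bbc3.

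Promoters of the members were searched for the p53 decamer consensus, which reads the same on both strands. RefSeq windows of 300 bases, 250 before the start and 50 after it, were read for 6 of the 9 genes: Mdm2, Ccng1, Phlda3, Aen, Ei24 and Fas. The 6 genes had 7 windows, 2 of them of Aen. The decamer stood in windows of 4 of the 6 genes (Mdm2, Ccng1, Aen and Ei24), and both windows of Aen held the same one. Counted by window and not by gene, it stood in 8.36% of all 32851 windows. The members were listed because they are p53 targets, so these counts cannot test whether p53 had a part in their differences. A pair of decamers no more than 13 bases apart, with at most 1 mismatch and each core C and G kept, stood in the window of 1 member, Ccng1, and in 0.627% of all windows; a match describes letters, not a bound site. The pair in Ccng1 lies 195 to 176 bases before the start with no spacer, and is shown in capitals in the 250 bases before the start, GRCm38.p6 chr11:40755287-40755536, minus strand.
Ccng1: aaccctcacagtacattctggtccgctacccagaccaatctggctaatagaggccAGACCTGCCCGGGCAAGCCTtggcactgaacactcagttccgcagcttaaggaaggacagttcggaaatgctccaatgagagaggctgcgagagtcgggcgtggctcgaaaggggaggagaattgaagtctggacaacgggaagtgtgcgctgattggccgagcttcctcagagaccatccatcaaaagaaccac
For comparison, the decamers of the other 3 genes are in capitals with their flanks, from chr9:36797315-36797364 on the minus strand for Ei24, chr7:78895917-78895966 on the plus strand for Aen and chr10:117710915-117710964 on the minus strand for Mdm2.
Ei24: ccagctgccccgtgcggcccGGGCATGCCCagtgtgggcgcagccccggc
Aen: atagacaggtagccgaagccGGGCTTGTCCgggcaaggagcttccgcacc
Mdm2: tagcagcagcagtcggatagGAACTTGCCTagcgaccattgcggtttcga

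The wider pathway was described by 57 further genes in 6 lists by role, of which 51 were measured, each by its brightest probe set. Limma called 0 of the 51, against 0.385% of all genes. An unadjusted p under 0.05 was found for 7 genes, 3 higher and 4 lower in KO mice, against 21.0% of all genes, 8.34% higher and 12.7% lower. KO and WT mice did not overlap for 17 genes, 4 higher and 13 lower, against 28.8% of all genes, 12.5% higher and 16.2% lower. The median difference was -0.06, against -0.04 over all genes. The fit with an intensity trend called 1 of the 51, Mdm4, and 4.42% of all genes.

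Among 10 measured p53 relatives and controllers of p53 protein, 7 lay higher in KO mice, with a median of 0.12, where 8063 of 18193 genes were higher. An unadjusted limma p under 0.05 was found for 3 of the 10, 2 higher and 1 lower, against 21.0% of all genes. Mdm4, the partner of Mdm2 that masks p53's activating domain, read 10.48, 10.34 and 10.54 in KO mice, against 9.96, 10.12 and 10.10 in WT mice. All KO mice were above all WT mice, by 0.39 ± 0.11 (adjusted p = 0.141; with the intensity trend, adjusted p = 0.0449). Rchy1, another ubiquitin ligase for p53, read 10.16, 10.10 and 10.05 in KO mice, against 9.86, 9.72 and 9.64 in WT mice. It too was apart, by 0.36 ± 0.11 (adjusted p = 0.153). Trp63, the p53 relative of epithelia, was at -0.33 ± 0.10 (adjusted p = 0.160).

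Among 9 kinases and coactivators that act on p53, 5 lay higher and 4 lower, with a median of 0.01 and 0 with an unadjusted p under 0.05. Trp53bp1, which binds damaged chromatin, was at 0.54 ± 0.25 (adjusted p = 0.290), with WT 497 inside the KO range. The checkpoint kinase Chek2 was at -0.18 ± 0.10 and the p53 kinase Hipk2 at 0.16 ± 0.12, or 0.08 without WT 504.

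In each list of targets outside the members, more genes lay lower than higher. Of 10 cell cycle targets 6 were lower (median -0.11), and of 9 cell death targets 6 (median -0.21). Of 8 metabolic and antioxidant targets 6 were lower (median -0.12), and of 5 DNA repair targets 4 (median -0.10). Over all 6 pathway lists 29 of 51 genes were lower, where 55.7% of all genes were lower. Array medians were lower in KO mice too, at 5.62 to 5.68 against 5.73 to 5.78 in WT mice. The part of that offset in these counts was not tested. Cdkn1a, the cell cycle inhibitor p21 and a classical p53 target, read 6.82, 6.80 and 6.92 in KO mice, against 7.34, 7.17 and 7.89 in WT mice. All KO mice were below all WT mice, by -0.62 ± 0.19 (adjusted p = 0.165), or -0.41 without WT 550, the highest mouse. Bbc3, the proapoptotic BH3-only protein PUMA, read 6.01, 6.17 and 5.78 in KO mice, against 6.84, 7.26 and 6.47 in WT mice. It was likewise apart, by -0.87 ± 0.22 (adjusted p = 0.123), and stood at -0.67 without WT 504, its highest mouse, and at -0.77 to -1.06 with any other mouse left out.

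The other named targets were not called either. Perp, a membrane protein of p53-induced death, was at -0.52 ± 0.26, Sesn3, an antioxidant and mTORC1 restraining protein, at -0.59 ± 0.28, and Xpc, which senses damage in nucleotide excision repair, at -0.68 ± 0.24 (adjusted p = 0.314, 0.298 and 0.195). Without WT 497, the highest mouse for each of them, they were at -0.21, -0.26 and -0.42. Ercc5, an endonuclease of the same repair pathway, was at 0.81 ± 0.22 (adjusted p = 0.138), with KO values of 8.15, 8.62 and 8.64, against WT values of 7.25, 7.93 and 7.79. Polk, a DNA polymerase that copies past damage, was at -0.25 ± 0.11, the sestrin Sesn2 at -0.24 ± 0.14 and Tigar, which diverts sugar from glycolysis, at -0.39 ± 0.20. Sesn2 was at -0.16 without KO 551 and -0.38 without KO 548, and Tigar at -0.23 without KO 493. Siva1, an apoptosis inducer, and Ckap2, a spindle protein, were each at -0.21, and the polo-like kinase Plk2 at -0.23 ± 0.12. Ckap2 was at -0.14 without WT 550. Under another quantile normalization Plk2 was at -0.12, Tigar at -0.28 and Perp at -0.40, while Siva1 and Ckap2 were at -0.20 and -0.21.

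**Figure D4:**
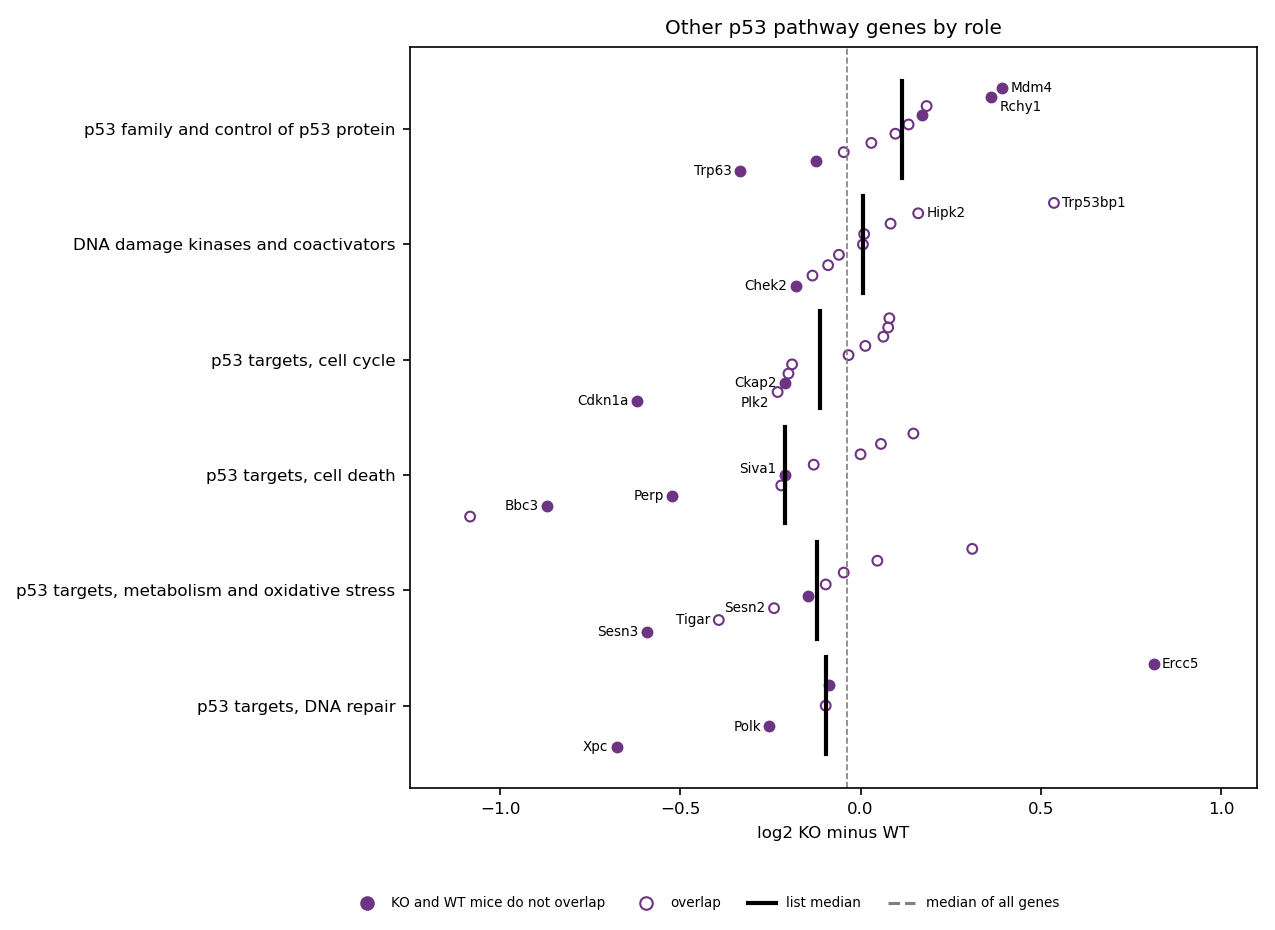
Log2 difference, KO minus WT, of the 51 other p53 pathway genes by role, with filled points where the 3 KO and 3 WT mice do not overlap, black bars for list medians and a dashed line at the median of all genes, -0.04. Mdm4 and Rchy1 lie at 0.39 and 0.36, Cdkn1a and Bbc3 at -0.62 and -0.87; 0 of the 51 were called.

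The targets with lower values stood beside lower markers of other blood cells, 31 of 34 against 55.7% of all genes. Mean levels of these markers were 9.47 to 9.49 in KO mice and 9.79 to 10.15 in WT mice. Of the erythroid markers 8 of 9 were lower as well. The part of any of these markers in the values of the targets was not tested.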

How the data were processed

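RNA of sorted bone marrow erythroblasts was measured on 1 array per mouse, 3 KO and 3 WT, grouped by sample title. Per the submitters' processing notes, the deposited intensity values were made with RMA, which fits all arrays together; software, version and background step were not given in the sources used here. The deposited intensities were linear, and 100% of them were powers of 2 whose exponent had 2 decimals, so that exponent was used as log2 intensity, with no further normalization or pseudocount. After 64 controls were left out, 45037 probe sets were tested with limma 3.58.1 in R 4.3.3 (lmFit, eBayes, no covariate). Differences are KO minus WT, and intervals are limma's. Gene names came from GEO's platform annotation, 34945 probe sets having 1 gene and 932 several; symbols, promoters and microRNAs came from RefSeq (GRCm38.p6). A gene outside the members is represented by its brightest probe set, and the 3 genes with the smallest p per list are named. Likeness to Trp53 was planned but not computed, since Trp53 was not analysed here. The fit was tested on simulated data. Members and lists were chosen with earlier results of these data known. The number of arrays limits the precision.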

Additional observations from a re-analysis of the deposited data

How the results depend on the processing

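Over all probe sets, the number called was 160 as reported, 1592 with the intensity trend and robust prior, 1015 with the level filter, 1016 after adding 16 to each intensity, 19 with an ordinary equal-variance test, 17 with mice 493, 497 and 504 against 548, 550 and 551 as a block and 8 to 23 with 1 mouse left out. For the members, 2 probe sets were called with the trend, 1 with the filter and 1 after adding 16, all of Ccng1, and 0 in the other alternatives, also with any 1 mouse left out; of the other pathway genes 1 was called with the trend. Member probe sets without overlap between groups numbered 6 to 10 with 1 mouse left out. Fewer mice make separation easier for any probe set, and the share over all probe sets is not given for these settings. The range is therefore no result about the members. Of 275 alternative values of the members, 18 turned sign, each for a difference that was not called. They include Zmat3 under quantile (0.0406) and cyclic loess normalization (0.0144), Rrm2b under quantile (0.00694 and 0.0311), cyclic loess (0.0134) and the block (0.105), and Mdm2 as the mean of its probe sets (-0.17). With 1 mouse left out, sign-turned results ranged from -0.10 to 0.11 for Mdm2's second probe set, -0.0167 to 0.148 for Trp53inp1, -0.20 to 0.11 for Zmat3, and -0.318 to 0.00167, -0.263 to 0.0417 and -0.22 to 0.11 for Rrm2b. Of 234 values of the 18 named pathway genes, added after seeing the data, 0 turned sign and 1 became called. Sizes moved without a turn of sign: under quantile normalization Cdkn1a was at -0.51, Bbc3 at -0.77, Fas at -0.39 and Phlda3 at -0.15. Differences on the higher side moved as well, with Aen 1437373_at at 0.81 and Ercc5 at 0.88. No paired analysis was possible because KO and WT mice share no label number. The cause of these differences in count was not tested; the filter left 22522 probe sets to test. Signals near the bottom of the scale limit 1 probe set each of Mdm2, Aen and Rrm2b.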
